A study of Homo sapiens with 9 samples.

Results

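MMGT1, also named EMC5, and the other 9 subunits of the endoplasmic reticulum (ER) membrane complex (EMC) were measured by RNA sequencing in A549 cells, a human lung adenocarcinoma cell line. All 10 subunits, EMC1, EMC2, EMC3, EMC4, MMGT1, EMC6, EMC7, EMC8, EMC9 and EMC10, were found among the 18143 genes listed. MMGT1 was chosen by its difference between the siRNAs SiREV1#1 and SiREV1#2, so its values are a description with no test. The other 9 subunits were chosen by membership of the complex, and the question was whether they moved with MMGT1. Cells were transfected for 48 h with a scrambled siRNA (Scramble) or with either of the siRNAs against REV1, a DNA polymerase of translesion synthesis, giving 9 libraries, 3 for each siRNA. Every group was transfected, so there was no untransfected control, and the siRNAs lower REV1 transiently without deleting the gene. The labels number the replicates 1 to 3 without saying whether they were separate cultures, so p-values measure the spread between these samples, which may be technical.

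The EMC is a membrane protein complex of the ER that inserts transmembrane segments into the lipid bilayer, among them tail-anchored proteins and the first segment of many multipass proteins. EMC3 and EMC6 form its insertase core in the membrane, MMGT1 is a small transmembrane subunit that helps to hold the complex together, EMC2 and the paralogs EMC8 and EMC9 form its cytosolic side, and EMC1, EMC7 and EMC10 reach into the ER lumen. EMC8 and EMC9 occupy the same position, so that a given complex holds either of them. Subunits that are not assembled are often unstable as proteins. The values here are RNA levels, and protein was not measured.

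REV1, the siRNA target, had 7.23, 7.90 and 8.44 FPKM (fragments scaled to transcript length and to sequencing depth) after Scramble, 2.60, 2.92 and 3.36 after SiREV1#1, and 3.62, 3.36 and 3.18 after SiREV1#2. Every siRNA library was below every Scramble library. REV1 fell by 1.26 on the log2 scale after SiREV1#1 (SE 0.17, edgeR adjusted p = 0.042) and had a log2 fold change of -1.33 after SiREV1#2 (SE 0.20, adjusted p = 0.15, or 0.0099 with the replicate number as a block). Library totals ran from 13059082 estimated counts in SiREV1#1 replicate 1 to 20166451. Replicate 1 of all 3 groups stood apart from replicates 2 and 3 on the first principal component, which held 67.2% of the variance. The deposited count column of SiREV1#2 replicate 3 repeats that of replicate 2 and was counted once, so count tests used 8 libraries while FPKM covered all 9. Without the block, replicate 1 thus weighed more in the SiREV1#2 count values than in those of the other groups. Of epithelial markers, KRT8 (1372 to 5602 FPKM) and KRT18 (2491 to 5216) were high, CDH1 had 6.32 to 43.8, and EPCAM and KRT19 stayed at or below 2.38 and 1.34. Markers of blood (PTPRC), fibroblasts (COL1A2, DCN) and endothelium (PECAM1, VWF) were at most 0.47 FPKM in any library, and CD3E was not analysed here.

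MMGT1 RNA was 9.97, 12.5 and 12.8 FPKM in Scramble replicates 1 to 3. After SiREV1#1 it was 1.23, 1.72 and 1.66 FPKM, and after SiREV1#2 it was 10.3, 16.4 and 16.3 FPKM. All SiREV1#1 libraries were far below all others, whereas the SiREV1#2 and Scramble libraries overlapped. The mean after SiREV1#1 was 13.1% of the Scramble mean, and after SiREV1#2 it was 122.1%. Within replicate numbers the log2 ratio to Scramble was -2.92, -2.79 and -2.87 after SiREV1#1, a spread of 0.067 (SD, n = 3). The same ratio was 0.052, 0.39 and 0.35 after SiREV1#2. The ratios after SiREV1#1 differed little between the replicates, those after SiREV1#2 ranged from near 0 upwards (SD 0.18), and replicate 1 had the lowest MMGT1 level in every group. The values rested on 961, 1309 and 1346 estimated counts in Scramble, on 85, 180 and 171 after SiREV1#1, and on 991 and 1737 in the SiREV1#2 libraries with their own count column. In the edgeR fit across all genes, the log2 fold change was -2.86 (SE 0.24) for SiREV1#1 against Scramble, 0.22 (SE 0.24) for SiREV1#2 against Scramble, and -3.08 (SE 0.25) for SiREV1#1 against SiREV1#2. In bulk RNA, fewer cells with the transcript and less transcript per cell cannot be told apart.

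**Figure D1:**
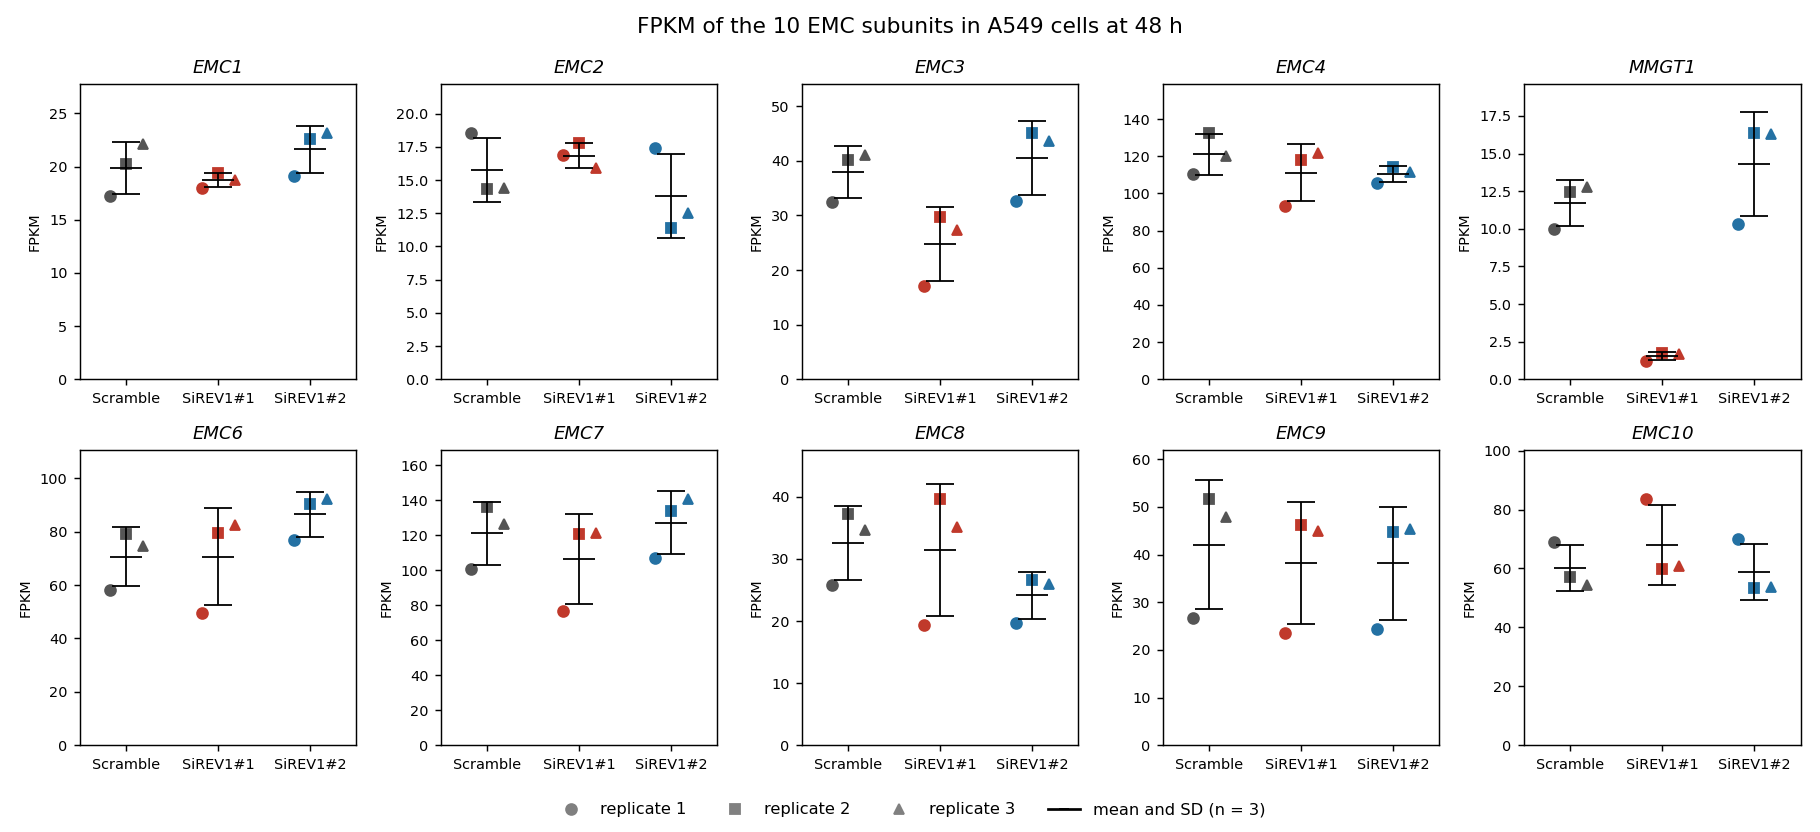
FPKM (y axis, from 0, scaled separately in each panel) of the 10 EMC subunits in each library of the 3 groups (x axis), with symbols for the replicate number and bars for the mean and SD (n = 3). MMGT1 sits between 1.23 and 1.72 FPKM after SiREV1#1 and at or above 9.97 in the other libraries, and EMC3 is the only other subunit whose SiREV1#1 libraries are all below the Scramble libraries.

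The MMGT1 gene lies on chromosome X, from 135962070 to 135974063 on the minus strand of GRCh38 (GENCODE release 29), and its annotated transcript has 4 exons and a 3′ UTR of 2954 bases, against a median of 1360 bases over the longest 3′ UTRs of the genes tested. The siRNA words were looked up in the members because SiREV1#1 and SiREV1#2 share the target REV1 and differ in sequence. The 19-base REV1 sites, read from the annotated REV1 coding sequence, are shown so that the MMGT1 matches can be set beside them, with the bases opposite guide positions 2 to 8 in capitals.
SiREV1#1 site in REV1, chr2:99404474-99404492, minus strand: gaacagtgacgCAGGAATa
SiREV1#2 site in REV1, which spans an exon junction within chr2:99442452-99449336, minus strand: gcatcaaagctGGACGACt
Neither word of 7 bases, CAGGAAT or GGACGAC, nor that of Scramble, TGTCACG, occurred in the longest 3′ UTR or the coding sequence of any of the 10 members. In the genes tested, 15.7%, 1.31% and 3.10% of the longest 3′ UTRs held these words. The shorter word AGGAAT, opposite guide positions 2 to 7 of SiREV1#1, was searched after the MMGT1 values were known, on the transcript strand alone. MMGT1 held it at 3 places, once in the coding sequence and 2 times in the 3′ UTR, and the surrounding 30 bases are given with the word in capitals.
MMGT1 coding sequence, chrX:135965150-135965179, minus strand: tttgatacgttaAGGAATcacccatccttt
MMGT1 3′ UTR, chrX:135964795-135964824, minus strand: ggtatttcatatAGGAATtatttttttttt
MMGT1 3′ UTR, chrX:135964078-135964107, minus strand: gacagagttcaaAGGAATtgggccaaatat

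When aligned on the word, these places shared 7, 9 and 9 of 19 bases with the REV1 site of SiREV1#1. The best ungapped alignment anywhere in the MMGT1 transcript shared 12 of 19 bases. The best in the EMC3 transcript also shared 12, and no other gene was aligned in this way. AGGAAT is common, since 40.6% of the longest 3′ UTRs of the genes tested held it and 17.7% held it at 2 or more places. Of the other members, EMC8 held it once and EMC10 2 times in the 3′ UTR, with mean levels after SiREV1#1 of 96.5% and 113.1% of Scramble. EMC3 held it 2 times in its coding sequence and not in its 3′ UTR, with a mean level after SiREV1#1 of 65.4% of Scramble. Aligned on the word, the EMC3 places shared 8 and 10 of 19 bases with the REV1 site of SiREV1#1. The word CACTGTT, which pairs with positions 2 to 8 of the other strand of SiREV1#1, occurred once in the 3′ UTRs of MMGT1, EMC1 and EMC10 and in 17.2% of all genes tested. The same word for SiREV1#2, TTTGATG, occurred once in the 3′ UTR of EMC8 and in 17.6% of genes. Of the other 6-base words, GACGAC of SiREV1#2 was in no member (4.33% of genes). GTCACG of Scramble was in the 3′ UTRs of EMC3 and EMC10 (8.1% of genes) and in the coding sequence of EMC9. Whether any of these matches bears on the RNA levels was not tested.

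EMC3, the insertase subunit related to the Oxa1 family, was the only other member whose SiREV1#1 libraries were all below those of Scramble. It had 32.4, 40.2 and 41.1 FPKM in Scramble replicates 1 to 3, 17.2, 29.8 and 27.4 after SiREV1#1, and 32.7, 45.1 and 43.7 after SiREV1#2. All SiREV1#1 libraries lay below all Scramble and all SiREV1#2 libraries, with means of 65.4% and 61.2% of those groups, while the SiREV1#2 and Scramble libraries overlapped. The log2 ratio to the same-numbered Scramble library was -0.91, -0.43 and -0.58, so it was largest in replicate 1. An exact two-sided permutation test of the FPKM gave p = 0.1 for either comparison, the smallest that 3 libraries against 3 allow. In edgeR without the block, EMC3 did not pass after SiREV1#1 (log2 fold change -0.52, SE 0.21, adjusted p = 0.49). With the replicate block EMC3 fell by 0.53 after SiREV1#1 (SE 0.12, adjusted p = 0.027) and was lower than after SiREV1#2 by a log2 difference of -0.60 (SE 0.14, adjusted p = 0.023). Over the 18 alternatives with an adjusted p, it ranged from 0.00011 to 1 against Scramble and from 0.0001 to 0.70 against SiREV1#2, and 3 of them passed in either comparison. After SiREV1#2 the log2 fold change of EMC3 was 0.01 (SE 0.24, adjusted p = 1). The SiREV1#1 fold change of MMGT1 was thus several times that of EMC3 on the log2 scale, at -2.86 against -0.53 in the blocked fit.

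EMC6, the partner of EMC3 in the insertase core, had 58.0, 79.0 and 74.6 FPKM in Scramble, 49.6, 79.3 and 82.5 after SiREV1#1, and 76.8, 90.2 and 92.3 after SiREV1#2. The SiREV1#1 range covered that of Scramble, and the ratio of the means was 0.9996. After SiREV1#2 EMC6 was above the same-numbered Scramble library in 3 of 3 pairs, by log2 ratios of 0.40, 0.19 and 0.31, but the groups overlapped and it did not pass the test (log2 fold change 0.27, SE 0.25, edgeR adjusted p = 1, or 0.26 with the block). EMC6 shares 74.25% of its exon bases with P2RX5-TAX1BP3 on the opposite strand, and whether reads were counted by strand is not given in the sources used here, so its values may include reads of that gene. EMC9 shares 19.6% of its exon bases with the noncoding AL136295.2 and EMC3 shares 5.34% with EMC3-AS1, also on the opposite strand.

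EMC4, a subunit at the cytosolic entry to the membrane cavity, passed in no comparison. It had 110.4, 133 and 120.3 FPKM in Scramble, 93.4, 118 and 121.7 after SiREV1#1, and 106, 114 and 111 after SiREV1#2. The log2 fold changes were -0.06 (SE 0.16) after SiREV1#1 and -0.10 (SE 0.18) after SiREV1#2, where EMC4 was below Scramble in 3 of 3 pairs.

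On the cytosolic side, EMC2, a scaffold of tetratricopeptide repeats, had 18.6, 14.3 and 14.4 FPKM in Scramble, 16.9, 17.8 and 15.9 after SiREV1#1, and 17.4, 11.4 and 12.5 after SiREV1#2. Its groups overlapped in every comparison, and its log2 fold changes were 0.24 (SE 0.23) after SiREV1#1 and 0.05 (SE 0.26) after SiREV1#2. With the block the SiREV1#2 value had the opposite sign, at -0.03 (SE 0.15). EMC2 was below the same-numbered Scramble library in 3 of 3 pairs after SiREV1#2, by log2 ratios of -0.09, -0.32 and -0.20. EMC8 had 25.8, 37.2 and 34.6 FPKM in Scramble, 19.4, 39.7 and 35.1 after SiREV1#1, and 19.7, 26.6 and 26.0 after SiREV1#2. After SiREV1#2 EMC8 was below Scramble in 3 of 3 pairs, by log2 ratios of -0.38, -0.48 and -0.41, with a mean of 74.1% of Scramble. It did not pass in edgeR (log2 fold change -0.44, SE 0.40, adjusted p = 1, or -0.33 and 0.48 with the block), and the FPKM ranges of the groups overlapped because Scramble replicate 1 was as low as the SiREV1#2 libraries. Its paralog EMC9 had 26.7, 51.7 and 47.9 FPKM in Scramble, 23.6, 46.2 and 45.0 after SiREV1#1, and 24.4, 44.7 and 45.3 after SiREV1#2. EMC9 differed far more by replicate number than by siRNA, since replicate 1 was below the mean of replicates 2 and 3 by a log2 ratio of -0.90 in Scramble, -0.95 after SiREV1#1 and -0.88 after SiREV1#2. The EMC8 level divided by the EMC9 level was 0.96, 0.72 and 0.72 in Scramble, 0.82, 0.86 and 0.78 after SiREV1#1, and 0.81, 0.60 and 0.57 after SiREV1#2. Within each replicate number this ratio was lower after SiREV1#2 than after Scramble, and no test was run on it.

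Among the lumenal subunits, EMC1, the largest one, had 17.3, 20.3 and 22.1 FPKM in Scramble, 18.02, 19.4 and 18.8 after SiREV1#1, and 19.1, 22.6 and 23.2 after SiREV1#2. EMC7 had 101, 136 and 126 FPKM in Scramble, 76.6, 121 and 121 after SiREV1#1, and 107, 134 and 141 after SiREV1#2. EMC10 had 69.0, 57.2 and 54.2 FPKM in Scramble, 83.6, 59.8 and 60.7 after SiREV1#1, and 69.9, 53.3 and 53.6 after SiREV1#2. All 3 genes overlapped between the groups in every comparison. After SiREV1#1 the pairs were lower in 3 of 3 for EMC7, by log2 ratios of -0.40, -0.17 and -0.06, and higher in 3 of 3 for EMC10, by 0.28, 0.06 and 0.16. Neither passed the test, with log2 fold changes of -0.12 (SE 0.22, edgeR adjusted p = 0.98) for EMC7 and 0.28 (SE 0.24, adjusted p = 0.88) for EMC10.

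**Figure D2:**
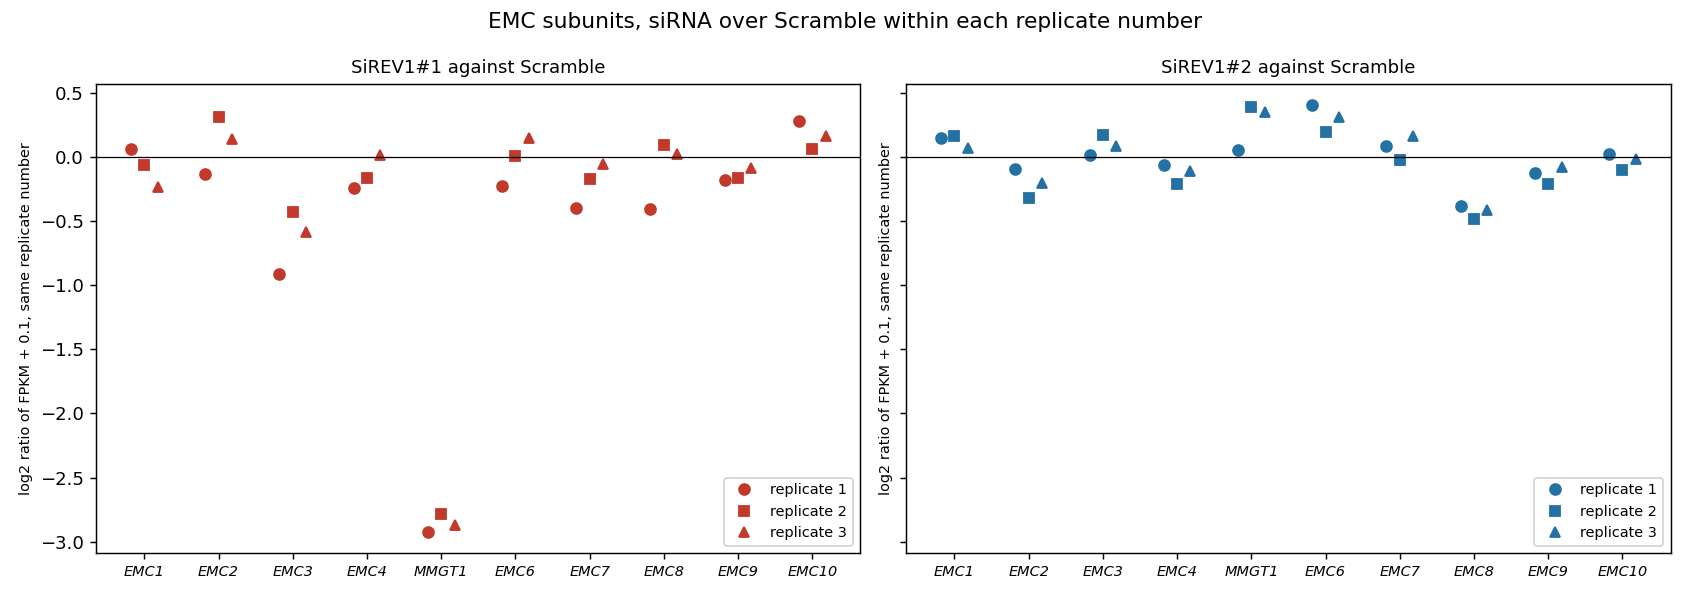
Log2 ratio of FPKM + 0.1 (y axis) between a siRNA library and the Scramble library with the same replicate number for the 10 EMC subunits (x axis), with 1 symbol per replicate number. MMGT1 lies between -2.92 and -2.79 after SiREV1#1, EMC3 between -0.91 and -0.43, and after SiREV1#2 EMC8 lies between -0.48 and -0.38.

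Over the 9 subunits other than MMGT1, 0 passed edgeR without the block at an adjusted p under 0.05 after SiREV1#1, where 0.296% of the 14205 genes tested passed. After SiREV1#2 it was 0 of 9 beside 0% of genes, and between the siRNAs 0 of 9 beside 0.676%. At an unadjusted p under 0.05 the counts were 1, 0 and 0, the 1 being EMC3, beside 9.75%, 5.48% and 12.4% of all genes tested. With the replicate block 1 of 9 fell after SiREV1#1 (12.3% of genes passed in either direction), 0 of 9 passed after SiREV1#2 (1.91%), and 1 of 9 was lower after SiREV1#1 than after SiREV1#2 (17.6%), again EMC3 in both cases. A count of 1 in 9 is no larger than the share of all genes in either comparison. FPKM of the groups did not overlap for 1, 0 and 1 of the 9 subunits, beside 18.5%, 15.1% and 22.4% of the genes tested. Agreement of 3 of 3 pairs was common among the 9 and sets no subunit apart. After SiREV1#2 EMC1, EMC3 and EMC6 were higher and EMC2, EMC4, EMC8 and EMC9 lower in 3 of 3 pairs. After SiREV1#1 EMC10 was higher and EMC3, EMC7 and EMC9 lower in 3 of 3. The share of all genes with such agreement was not computed. The median log2 fold change of the 9 was -0.06 after SiREV1#1 and 0.02 after SiREV1#2, beside 0.00 and 0.02 over all genes tested.

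Without replicate 1, more subunits passed and so did far more genes. With replicates 2 and 3 only, EMC2 rose and EMC3 fell after SiREV1#1, where 46.5% of 14181 genes passed, and EMC6 rose and EMC8 fell after SiREV1#2, where 38.4% passed. Between the siRNAs EMC2 and EMC8 were higher and EMC1 and EMC3 lower after SiREV1#1, where 54.4% of genes passed. The EMC2 difference between the siRNAs ran from -0.10 to 0.54 on the log2 scale over the alternatives, so its direction turned. In that fit the biological coefficient of variation, the spread between replicates beyond counting, was 0.0494, against 0.412 in the fit of all replicates without a block and 0.161 with it. SiREV1#2 has 1 library with a count column of its own in that fit, which is assumed to vary like the other groups.

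**Figure D3:**
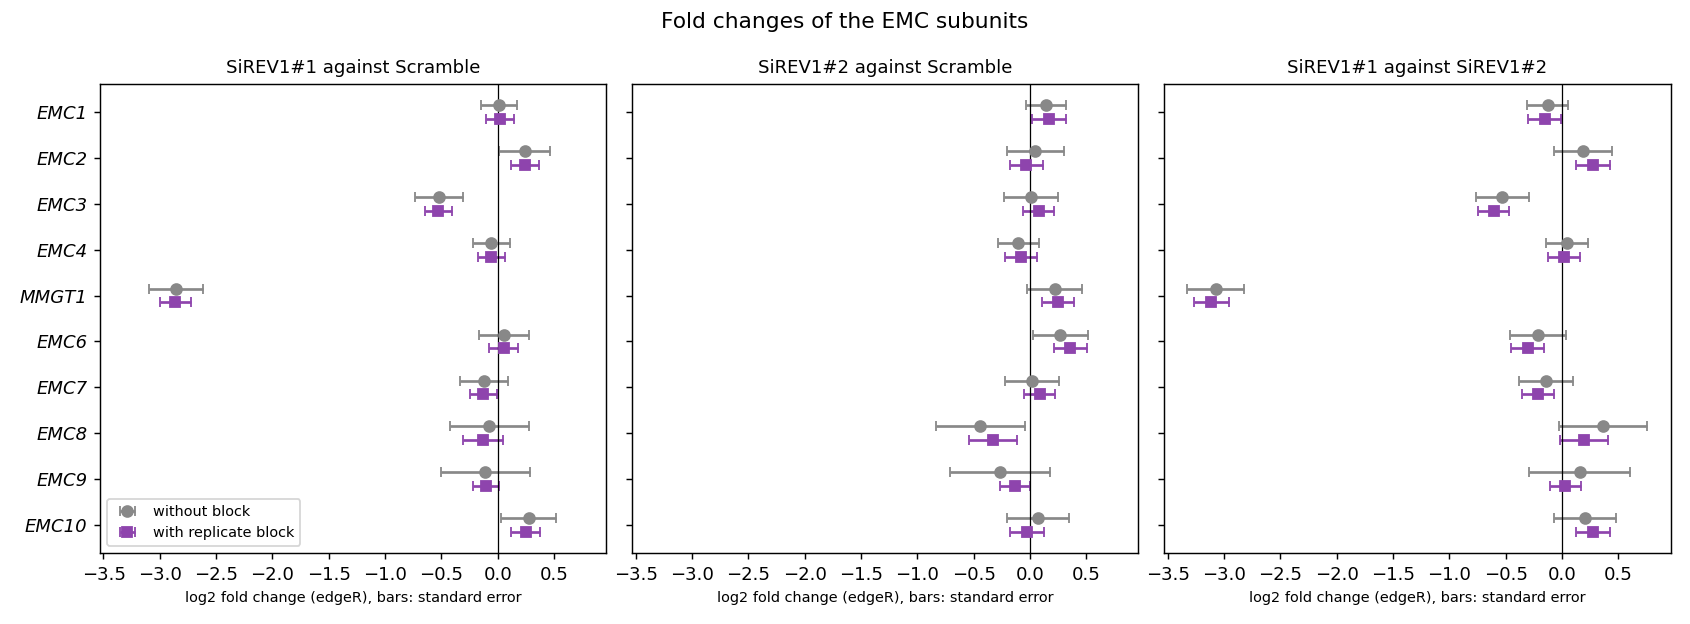
Log2 fold change (x axis) of the 10 EMC subunits (y axis) from edgeR in the 3 comparisons, without a block (grey circles) and with the replicate block (purple squares), with bars for the standard error. MMGT1 stands at -2.86 and -3.08 without the block in the comparisons that hold SiREV1#1, and EMC3 at -0.52 and -0.53.

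By level per transcript length, EMC7 and EMC4 were the highest subunits in Scramble, with means of 121.1 FPKM each, and their ranges overlapped. EMC6 and EMC10 followed at 70.5 and 60.1 and overlapped each other, then EMC9, EMC3 and EMC8 at 42.1, 37.9 and 32.5, where each overlapped the next, and EMC1 and EMC2 at 19.9 and 15.8, which overlapped. MMGT1 was lowest at 11.7 ± 1.54 FPKM (SD, n = 3), below the range of EMC2. It therefore made up 2.13% to 2.33% of the summed FPKM of the 10 subunits in Scramble. After SiREV1#1 this share was 0.31% to 0.32%, and after SiREV1#2 it was 2.14% to 2.93%. After SiREV1#2 MMGT1 ranked above EMC2 by mean level, with ranges that overlapped (10.3 to 16.4 against 11.4 to 17.4). The summed FPKM of the other 9 subunits was 459, 568 and 536 in Scramble, 398, 531 and 529 after SiREV1#1, and 473, 542 and 548.7 after SiREV1#2. The 3 groups overlapped, but within each replicate number the sum was lower after SiREV1#1 than after Scramble and than after SiREV1#2, in 3 of 3 pairs each. EMC3 is part of this sum. In replicate 3 the sum was 536 in Scramble and 529 after SiREV1#1, while EMC3 alone was 41.1 and 27.4. In replicate 2 the sum was 531 after SiREV1#1 and 542 after SiREV1#2, while EMC3 alone was 29.8 and 45.1. The lower sum in these pairs thus rests on EMC3 and does not show that the other subunits fell. No test was run on the sum.

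The other machinery of ER targeting and insertion was taken as a list of 35 genes, of which all were tested. In edgeR without the block 0 of 35 passed in any of the 3 comparisons, and 4, 1 and 3 had an unadjusted p under 0.05, where the shares of all genes were 9.75%, 5.48% and 12.4%. With the replicate block 2 of 35 passed after SiREV1#1, 1 after SiREV1#2 and 3 between the siRNAs, beside the shares of all genes given above. SRPRA, the receptor subunit that docks the signal recognition particle at the ER, had 34.7, 43.3 and 44.8 FPKM in Scramble and 66.9, 63.8 and 63.4 after SiREV1#1. All SiREV1#1 libraries were higher, and after SiREV1#2 it had 33.7, 44.1 and 43.5 FPKM, a range that overlapped Scramble. SRPRA rose by a log2 fold change of 0.75 after SiREV1#1 with the block (SE 0.16, adjusted p = 0.024, or 0.22 without it). CCDC47, a subunit of the PAT complex that shields membrane segments at the multipass translocon, had 54.6, 54.2 and 60.1 FPKM in Scramble, 26.6, 39.2 and 41.2 after SiREV1#1, and 49.6, 72.6 and 70.8 after SiREV1#2. It fell by 0.63 on the log2 scale after SiREV1#1 with the block (SE 0.14, adjusted p = 0.028, or 0.37 without it), and the SiREV1#1 libraries overlapped no others. SGTA, a cochaperone that hands tail-anchored proteins to the BAG6 complex, had 37.2, 47.7 and 44.2 FPKM in Scramble, 51.9, 41.2 and 42.5 after SiREV1#1, and 15.0, 18.9 and 19.9 after SiREV1#2. All SiREV1#2 libraries were lower than all others. SGTA fell by 1.35 on the log2 scale after SiREV1#2 with the block (SE 0.23, adjusted p = 0.032, or 0.25 without it). Over the alternatives the adjusted p of these calls ran from 1.2e-05 to 0.68 for SRPRA, from 6.7e-05 to 0.92 for CCDC47 and from 5.4e-07 to 1 for SGTA, with no change of direction.

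By pathway, with the block, 1 of 8 signal recognition particle and receptor genes rose after SiREV1#1 (SRPRA), and 1 of 8 multipass translocon genes fell (CCDC47). Over all genes tested 12.3% passed in that comparison, so 1 of 8 is near the share of all genes. After SiREV1#2 1 of 7 GET and BAG6 genes fell (SGTA), a single gene, where 1.91% of all genes passed. Of the 11 Sec61 and TRAP genes 0 passed after either siRNA, and TMEM208 of the SND pathway did not pass. The median log2 fold change of the 35 genes was -0.03 after SiREV1#1 and 0.10 after SiREV1#2, beside 0.00 and 0.01 over all genes tested. SEC61B, a subunit of the protein-conducting channel, had the lowest blocked fold change of the Sec61 and TRAP genes after SiREV1#1, with a log2 fold change of -0.53 that did not pass (edgeR adjusted p = 0.11), and was named after its values were seen.

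**Figure D4:**
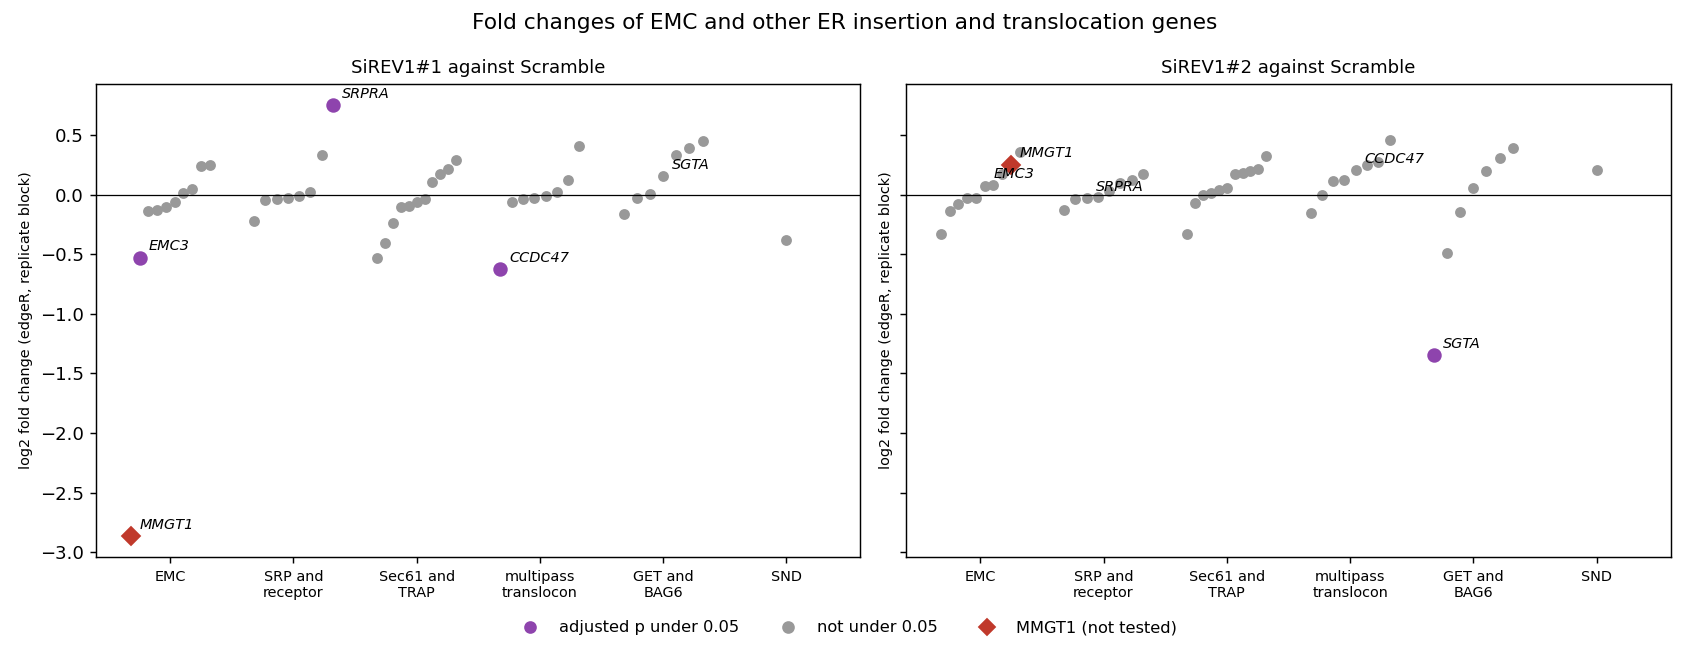
Log2 fold change from edgeR with the replicate block (y axis) of the EMC subunits and of the 35 other genes by pathway (x axis), for each siRNA against Scramble, with genes at an adjusted p under 0.05 in purple. MMGT1 (red diamond, not tested) is at -2.86 after SiREV1#1, and SRPRA at 0.75, CCDC47 at -0.63 and, after SiREV1#2, SGTA at -1.35 are the genes of the other pathways that passed.

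Of 4 genes whose proteins depend on the EMC for insertion, FDFT1, SOAT1, TMEM97 and ADRB1, 0 passed without the block in any comparison. ADRB1 was near the floor, at 0.05 to 0.49 FPKM. Its mean was 50.7% of Scramble after SiREV1#1, where the means of FDFT1, SOAT1 and TMEM97 were above Scramble, and 179.7% after SiREV1#2. With the block 1 of 4 rose after SiREV1#1 (12.3% of all genes passed) and 0 of 4 passed after SiREV1#2 (1.91%). The gene was TMEM97, which encodes the sigma-2 receptor and had 57.5, 20.5 and 18.97 FPKM in Scramble, 69.2, 31.1 and 28.5 after SiREV1#1, and 57.4, 17.2 and 17.9 after SiREV1#2. Its level was mainly set apart by replicate 1, and within each replicate number SiREV1#1 was highest. The log2 fold change was 0.57 with the block (SE 0.13, adjusted p = 0.032) and 0.53 without it (SE 0.66, adjusted p = 0.95). Over the 18 alternatives its adjusted p ran from 3.8e-05 to 1. Without the block, the log2 fold change after SiREV1#1 turned to -0.10 when SiREV1#1 replicate 1 was left out and was 1.23 without Scramble replicate 1.

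The genes whose pattern was most like that of MMGT1 were chosen by Pearson's r over the 9 libraries of log2(FPKM + 1), after the mean of each replicate number was subtracted, among 11428 genes with a mean above 1 FPKM. SUGT1, AHCYL1, QTRT2, MOB4 and ZNF146 led, each with r = 0.999. ZNF146 had 56.8, 80.9 and 84.9 FPKM in Scramble, 16.1, 24.5 and 26.4 after SiREV1#1, and 52.8, 99.0 and 96.9 after SiREV1#2. MOB4 fell from 16.3, 28.1 and 29.7 FPKM to 5.44, 8.85 and 9.06 in the same way, whereas the fitted log2 fold change of AHCYL1 was -0.38 (SE 0.33). These values rest on the contrast that chose MMGT1, and the points share their libraries. By the same measure EMC3 had r = 0.963 and rank 409, and EMC7 (0.824), EMC1 (0.735), EMC6 (0.502), EMC9 (0.404) and EMC4 (0.272) followed. EMC8 (-0.345), EMC2 (-0.632) and EMC10 (-0.920) had the opposite sign. The longest 3′ UTR held AGGAAT at 7 places in SUGT1, 3 in AHCYL1, 2 in QTRT2 and 1 each in MOB4 and ZNF146, beside 40.6% of genes with the word. SUGT1 also held CAGGAAT at 2 places. These 3′ UTRs have 1455 to 13074 bases, against the median of 1360, and the genes were picked by the contrast that chose MMGT1. Whether the words bear on their RNA levels was not tested.

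Beyond the ends of MMGT1, the nearest annotated genes are the pseudogenes CT45A11P and GAPDHP67, and the nearest protein-coding genes are SAGE1 and FHL1.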

How the data were processed

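RNA of 9 A549 libraries was compared in 3 groups taken from the sample labels, with 3 replicates each. The authors deposited FPKM and expected counts per gene for each library. The submitters' notes name hg38 and StringTie 1.3.3b, and the aligner, counter and strand setting are not given in the sources used here. The members, gene lists and siRNA words were chosen with earlier results of these data known. Expected counts (42.6% of the values were not whole) were rounded, filtered with filterByExpr, scaled by TMM and tested with the quasi-likelihood test of edgeR 4.0.16 in R 4.3.3 on 8 libraries, with Benjamini-Hochberg adjustment over all 14205 genes. No p-value was adjusted over a list alone. FPKM ratios used a pseudocount of 0.1. limma 3.58.1 on log2(FPKM + 1) and DESeq2 1.42.0 were alternatives, as were other scalings and filters, a threshold of 0.01 and leaving out each library. Scripts were tested on simulated data with 200 changed genes. After subtraction of the group mean, libraries that carry the same number in different groups correlated at 0.734 to 0.929 over 9 pairs. Replicate 1 stood apart in every group, and such an offset alone can make same-numbered libraries correlate. These correlations therefore cannot show whether the remaining replicates pair by number, and all pairs were formed by label. Values with the replicate block are given where they change a call. Named were all subunits, REV1, up to 3 genes per list and direction that passed, the 5 genes most like MMGT1 and its neighbours, and some items under this rule and the marker lists are not reported here. Annotation and sequences came from GENCODE release 29 on GRCh38, with the longest 3′ UTR of the protein-coding transcripts of each gene, found for 97.1% of symbols. GET1 and GET3 are listed in the files under older symbols, and 25 symbols appear as dates.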

Additional observations from a re-analysis of the deposited data

Results flagged for a closer look

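The effects of the siRNAs differed from each other by a direct test, edgeR with the replicate block, for 5 named genes. EMC3 was named as a subunit, whereas CCDC47, SGTA, SRPRA and TMEM97 were named because they passed with the block in these comparisons, the direct one included. For those genes passing here is therefore no separate support. Each value is the log2 fold change of SiREV1#1 against SiREV1#2. EMC3 was lower after SiREV1#1 (-0.60, adjusted p = 0.023), and so was CCDC47 (-0.83, adjusted p = 0.014). SGTA was higher (1.51, adjusted p = 0.0057), as were SRPRA (0.78, adjusted p = 0.028) and TMEM97 (0.65, adjusted p = 0.030). In the same comparison 17.6% of all genes tested passed, and without the block none of these 5 genes did (adjusted p = 0.43, 0.22, 0.055, 0.17 and 0.97 in the same order). The TMEM97 value of the unblocked fit, 0.28, turned to -0.35 without SiREV1#1 replicate 1 or SiREV1#2 replicate 2 and was 1.42 without SiREV1#2 replicate 1.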

How the results depend on the processing

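The replicate block and the fit of replicates 2 and 3 only changed the most calls. Counts from these fits, for the subunits and for the insertion genes below, are to be read beside the shares of all genes given above. With replicates 2 and 3 only, those shares were far larger than with the block. For DESeq2 and limma-trend the share of all genes that passed is not given here. Their counts alone therefore cannot show that a list responded more than other genes. Of the 9 subunits other than MMGT1, the counts that passed were 1, 0 and 1 with the replicate block (SiREV1#1, SiREV1#2 and direct comparison, in this order here and below) and 2, 2 and 4 with replicates 2 and 3 only. limma-trend on log2(FPKM + 1) with the block gave 1, 0 and 1. Leaving out any library kept 0 in all 3 comparisons. Of the 35 insertion genes, 2, 1 and 3 passed with the block, 2, 1 and 3 in DESeq2, 19, 8 and 17 with replicates 2 and 3 only, and 4, 1 and 11 in blocked limma-trend. limma-trend without a block, with a pseudocount of 1 or 0.1, gave 1 (SGTA) for SiREV1#2 and 1 in the direct comparison, as did upper-quartile scaling and total counts in the direct comparison, and leaving out a library kept 0 throughout.

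The MMGT1 log2 fold change after SiREV1#1 was -2.92 with total counts and -2.33 in limma-trend on log2(FPKM + 1), with or without the block, where the pseudocount compresses low values. In the direct comparison it was -2.57 in both limma-trend fits and -3.26 with replicates 2 and 3 only. Leaving out libraries gave -2.97 to -2.78 after SiREV1#1, -3.36 to -2.73 in the direct comparison, and -0.12 to 0.50 after SiREV1#2, where the sign turned without SiREV1#2 replicate 2 (-0.12) and the value was 0.50 without SiREV1#2 replicate 1.

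REV1 after SiREV1#1 no longer passed with the 2 groups alone (-1.26, adjusted p = 0.062), without a filter (-1.27, 0.074) or at 0.01 (-1.26), nor without any single library (-1.34 to -1.20). After SiREV1#2 it passed with the block (-1.27), DESeq2 (-1.31), limma-trend with a pseudocount of 1 (-1.01, blocked or not) or 0.1 (-1.19), and replicates 2 and 3 only (-1.41), and it was -1.38 to -1.26 without single libraries. Of 741 recomputed values of single genes, 48 newly passed and 71 changed sign where neither value passed. Depth limits MMGT1 most after SiREV1#1, at 85 to 180 counts. The cause of the changes between settings was not tested.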
